A study of Mus musculus with 5 samples.

Results

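The EGF receptor family, its ligands and the related receptor MET were followed through the fusion of hepatoma cells with embryonic stem cells and the later differentiation of the hybrids. The 10 genes were chosen by name: the receptors Egfr, Erbb2, Erbb3, Erbb4 and Met, the EGF receptor ligands Areg, Ereg, Hbegf and Tgfa, and Hgf, the ligand of MET. They were represented by 23 of the 41174 probes on the array and by 10 of the 18327 genes that could be named. Egfr and Erbb3 had 4 probes each, Erbb4 and Met 3, Erbb2, Tgfa and Hgf 2, and Areg, Ereg and Hbegf 1.

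The receptors of the family are tyrosine kinases of the cell surface that pair with each other when a ligand binds and pass the signal to the RAS, ERK and PI3 kinase relays. Their ligands are made as membrane-bound precursors and are released by proteases called sheddases. MET works in the same way for HGF, which is secreted as an inactive precursor. In the liver EGFR and MET are the main growth receptors of hepatocytes, HGF comes mostly from non-parenchymal cells, and the EGF receptor ligands are known for their part in regeneration and in hepatocellular carcinoma.

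Expression was measured on 5 arrays, 1 per condition. ES is the mouse embryonic stem cell line E14, Hepa1-6 is a mouse hepatoma line, and EHe is the line of hybrids made by fusing the pair. EHeD7 and EHeD14 are EHe cells after 7 and 14 days of differentiation. The medium of ES and EHe held leukemia inhibitory factor and serum replacement, while by the labels Hepa1-6 and the differentiating hybrids were in high-glucose DMEM with fetal calf serum, on gelatin for the hybrids, so that medium and cell state cannot be told apart. ES and EHe medium also held a little fetal bovine serum, and the study's methods, which do not name the array samples, give embryoid bodies in medium with serum replacement for differentiation. By the study's account the hybrids were near-tetraploid, with ES cells that bore a red fluorescent protein with hygromycin resistance and tumor cells given a green one with neomycin resistance. Whether the EHe array came from 1 colony is not given in the sources used here.

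With 1 array per condition no difference between conditions could be tested, and the number of arrays limits the precision. Levels are log2 signals relative to the 75th percentile of the same array, and a level was compared within a probe only. The error given after ± is the SD over 10 spots where a probe was printed 10 times, and otherwise the scanner software's own error for the spot. It covers spot noise and not the spread between cultures. A probe was called dim where the software did not find it well above background. A fold against a dim array is given as a lower bound, with the lowest level called well above background there in place of the dim level. That lowest level lay between -6.16 in EHeD7 and -4.84 in EHe. Where the dim level was itself above it, the dim level was kept. As some dim probes lay above it, the bounds hold for this cut only. The software found between 54.7% of probes (Hepa1-6) and 67.6% (EHeD7) well above background, and its quality metric for negative controls was out of range on the EHe array. The array of Hepa1-6 was on a slide of its own and the other 4 arrays shared 1, so that slide and hepatoma line cannot be told apart.

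The labelled cell types were checked against defining markers. All 5 measured pluripotency markers (Pou5f1, Sox2, Zfp42, Esrrb and Dppa5a) were well above background in ES, EHe, EHeD7 and EHeD14, and only Dppa5a was in Hepa1-6. Their median level was 4.12 in ES, 4.04 in EHe, 2.62 at day 7 and 1.60 at day 14. Of 9 hepatocyte and hepatoma markers, 7 were well above background in Hepa1-6, with Ttr and Apoa1 dim. In ES there were 4 (Afp, Hnf4a, Foxa2 and Trf) and in EHe 1 (Trf). In EHeD7 and in EHeD14 there were 3 (Hnf4a, Foxa2 and Trf), while Alb, Afp, Ttr, Apoa1, Apoa2 and Foxa1 were dim. Of the serum protein markers, only Trf (transferrin) was thus well above background in EHeD7 and EHeD14. It stood at -1.03 in EHeD7, over its level in ES (-1.44) and EHe (-1.86), and at -2.39 in EHeD14, under both. Foxa2 was dim in EHe and stood at -4.57 in EHeD7 and -2.43 in EHeD14, beside -2.85 in ES. Hnf4a was dim in EHe and stood at -4.28 and -4.37, beside -3.72 in ES.

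The promoters of 4 members are shown because Egfr, Met and Tgfa were the members higher in the differentiated hybrids and Areg was the member detected in Hepa1-6 alone. Each sequence is the 250 bases before the start of the gene, on the plus strand of GRCm38.p6, from RefSeq. Capitals mark 5 short motifs searched on both strands: the GC box GGGCGG, the AP-1 element TGANTCA, the cyclic AMP response element TGACGTCA, the TATA box TATAAA and the FOXA core TNTTTAC, none of which overlapped another here. A GC box on the reverse strand reads CCGCCC.
Egfr (chr11:16751953-16752202): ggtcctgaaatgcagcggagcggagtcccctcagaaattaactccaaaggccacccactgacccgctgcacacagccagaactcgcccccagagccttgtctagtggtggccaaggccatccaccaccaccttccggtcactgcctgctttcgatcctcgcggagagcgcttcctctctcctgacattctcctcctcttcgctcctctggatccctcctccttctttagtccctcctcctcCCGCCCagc
Met (chr6:17463707-17463956): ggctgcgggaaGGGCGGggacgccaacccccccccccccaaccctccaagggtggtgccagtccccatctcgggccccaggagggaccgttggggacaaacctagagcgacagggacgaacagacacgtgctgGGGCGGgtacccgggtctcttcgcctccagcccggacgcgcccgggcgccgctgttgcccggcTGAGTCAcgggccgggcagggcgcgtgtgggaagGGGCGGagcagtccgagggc
Tgfa (chr6:86194972-86195221): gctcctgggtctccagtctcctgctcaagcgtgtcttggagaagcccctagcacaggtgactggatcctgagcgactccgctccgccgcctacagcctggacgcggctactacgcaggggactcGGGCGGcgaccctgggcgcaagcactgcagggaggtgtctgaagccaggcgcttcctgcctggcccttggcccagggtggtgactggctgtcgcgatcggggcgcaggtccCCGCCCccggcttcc
Areg (chr5:91139349-91139598): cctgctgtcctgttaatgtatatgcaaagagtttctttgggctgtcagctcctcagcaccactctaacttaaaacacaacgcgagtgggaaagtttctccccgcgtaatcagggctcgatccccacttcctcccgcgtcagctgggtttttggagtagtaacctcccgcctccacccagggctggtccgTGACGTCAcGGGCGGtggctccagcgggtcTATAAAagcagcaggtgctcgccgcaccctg

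Egfr held 1 GC box on the reverse strand, 9 bases before the start. Met held 3, at 239, 117 and 20 bases, together with an AP-1 element at 54 bases. Tgfa held GC boxes at 126 and 15 bases. Areg was the one with a TATA box, at 31 bases, beside a cyclic AMP response element at 61 bases and a GC box at 52 bases. Among all 32817 RefSeq windows of this length, 32.7% held a GC box, 6.75% the AP-1 element, 1.55% the cyclic AMP response element, 12.4% the TATA box and 10.9% the FOXA core. The FOXA core, searched because the study takes Egfr and Tgfa as targets of the liver factor Foxa1, was in none of the windows printed. It was found in that of Erbb2 (228 bases) and in 1 window of Hgf (24 bases) but not in its other, both matches on the reverse strand. These are matches of letters and not measured binding sites. RefSeq windows were at hand for 7 of the 10 members, and not for Erbb3, Ereg and Hbegf.

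By its best detected probe, 7 of the 10 genes were well above background on at least 1 array. Egfr, Erbb2, Hbegf, Tgfa and Met were so on all 5 arrays, Erbb3 on 2 and Areg on 1. Every probe of Erbb4, Ereg and Hgf was dim on every array, with levels between -8.49 and -6.82. Erbb4 is the neuregulin receptor best known from heart and nervous system, and Ereg encodes epiregulin.

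**Figure D1:**
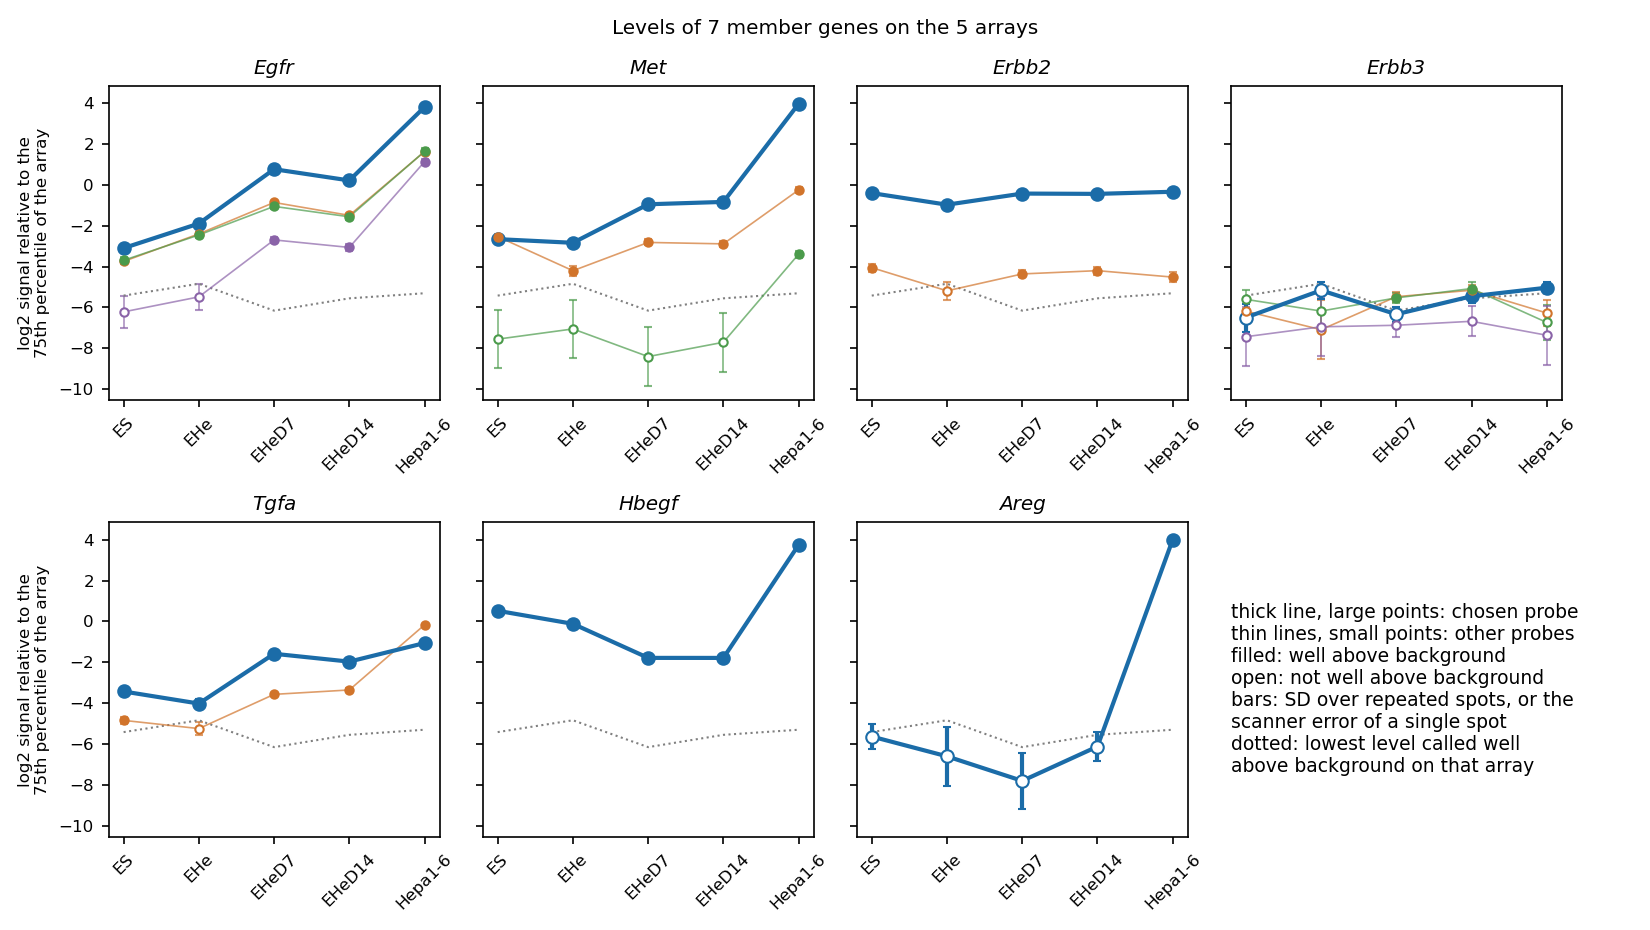
Log2 signal relative to the 75th percentile of the array (y axis) in ES, EHe, EHeD7, EHeD14 and Hepa1-6 (x axis), 1 panel per member detected on an array and 1 line per probe. Thick lines are the best detected probes, open points are dim, bars are spot errors and the dotted line is the lowest level called well above background. Egfr and Met were highest in Hepa1-6 and intermediate at days 7 and 14, Erbb2 varied least, and Areg was filled in Hepa1-6 alone.

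The first comparison asked how the parents differed. Hepa1-6 carried more receptor and ligand transcript than ES at 5 of the 7 detected members, and none was over 3-fold lower. The 5 were Egfr, Met, Areg, Hbegf and Tgfa. Areg counted as detected through its Hepa1-6 signal alone, so that its direction in this and the later counts against Hepa1-6 was set by that filter. Over all 29975 probes well above background on an array, 14.3% were past 3-fold upward and 25.3% downward. Egfr was 121-fold higher in Hepa1-6 than in ES, Met 99.1-fold, Hbegf 9.39-fold and Tgfa 5.18-fold, and Areg at least 689-fold.

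Egfr stood at -3.09 ± 0.12 in ES, -1.89 ± 0.12 in EHe, 0.77 ± 0.08 at day 7, 0.22 ± 0.06 at day 14 and 3.82 ± 0.09 in Hepa1-6 (10 spots per array). The 5 levels were all apart by more than the spot error, with ES lowest, Hepa1-6 highest and the differentiated hybrids between EHe and Hepa1-6. The other 3 Egfr probes gave the same order, 1 of them dim in ES and EHe. They put the excess of Hepa1-6 over ES at 41.8-fold, 40.4-fold and at least 94.5-fold. A further probe, tied to Egfr only by the study's supplementary list, was dim in ES and EHe and stood at -3.59, -3.90 and -0.70 in EHeD7, EHeD14 and Hepa1-6.

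Met had -2.65 ± 0.15 in ES, -2.83 ± 0.17 in EHe, -0.95 ± 0.14 at day 7, -0.83 ± 0.14 at day 14 and 3.98 ± 0.14 in Hepa1-6. By this probe ES and EHe did not differ beyond the spot error, nor did the days of differentiation, and Hepa1-6 stood far above all others. A second Met probe gave a smaller difference between the parents, 4.87-fold, with levels of -2.53 in ES, -4.20 in EHe, -2.81 and -2.88 in the differentiated hybrids and -0.24 in Hepa1-6. The last Met probe was well above background in Hepa1-6 alone, at -3.39, at least 4.09-fold over ES. The probes thus agreed on Hepa1-6 as the highest array but not on the size of its excess, and the cause was not tested.

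Erbb2, which has no ligand of its own and serves as partner for the other receptors, was the member with the least movement. Its level was -0.40 ± 0.07 in ES, -0.97 ± 0.06 in EHe, -0.42 ± 0.05 at day 7, -0.44 ± 0.07 at day 14 and -0.33 ± 0.11 in Hepa1-6. EHe was lower than ES by 0.57 ± 0.09, and the other 4 arrays lay within their spot errors. The second Erbb2 probe was dim in EHe and lay between -4.51 and -4.05 on the other arrays. Erbb3, the neuregulin receptor with little kinase activity of its own, was near the detection limit throughout. Its best detected probe was well above background in EHeD14 (-5.45) and Hepa1-6 (-5.03), while 2 other probes were so in EHeD7 and EHeD14 but not in Hepa1-6, and the last was dim on all arrays. The Erbb3 probes therefore gave no common order of the conditions.

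Among the ligands, Areg (amphiregulin) was dim in ES, EHe, EHeD7 and EHeD14, with levels between -7.81 and -5.64, and stood at 4.01 ± 0.14 in Hepa1-6. Only the hepatoma line thus had a measured level of Areg. Hbegf, the heparin-binding ligand, had 0.52 ± 0.14 in ES, -0.11 ± 0.14 in EHe, -1.78 ± 0.15 in both differentiated hybrids and 3.76 ± 0.14 in Hepa1-6. It was lowest after differentiation, and not in the undifferentiated cells. Tgfa (transforming growth factor alpha) had -3.43 ± 0.17 in ES, -4.02 ± 0.23 in EHe, -1.58 ± 0.14 at day 7, -1.97 ± 0.15 at day 14 and -1.06 ± 0.15 in Hepa1-6. Its second probe, printed 10 times, showed a wider gap between the parents, with -4.85 ± 0.18 in ES, -3.57 ± 0.08 and -3.36 ± 0.09 in EHeD7 and EHeD14, and -0.16 ± 0.04 in Hepa1-6, and was dim in EHe. That probe put Hepa1-6 25.7-fold over ES.

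The second comparison asked whether the hybrids kept the hepatoma pattern of these genes. In undifferentiated EHe cells none of the 7 detected members was over 3-fold from ES by its best detected probe, against 3.69% of all probes higher and 5.66% lower. Among members well above background on both arrays Egfr was the furthest above ES, by 2.30-fold (1.20 ± 0.17 on the log2 scale), and the other 2 Egfr probes well above background on both arrays gave 2.55-fold and 2.37-fold. With normexp background correction the log2 difference was 0.72. Hbegf was lower in EHe by 0.64 ± 0.20, Tgfa by 0.59 ± 0.29 and Erbb2 by 0.57 ± 0.09. For Met the probes differed, with a log2 difference of -0.18 ± 0.23 for the best detected and a 3.19-fold lower level for the second. Set against EHe in place of ES, Hepa1-6 was again over 3-fold higher at Egfr, Met, Areg, Hbegf and Tgfa and at no member lower, beside 14% of all probes higher and 21.8% lower.

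The third comparison followed the hybrids out of the undifferentiated state. At day 7, Egfr, Tgfa and Met were over 3-fold higher than in EHe and Hbegf over 3-fold lower, against 8% of all probes higher and 4.21% lower. At day 14 the same 3 genes were higher and the same 1 lower, against 8.2% and 4.66%. Both days were compared with 1 EHe array and share its noise.

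**Figure D2:**
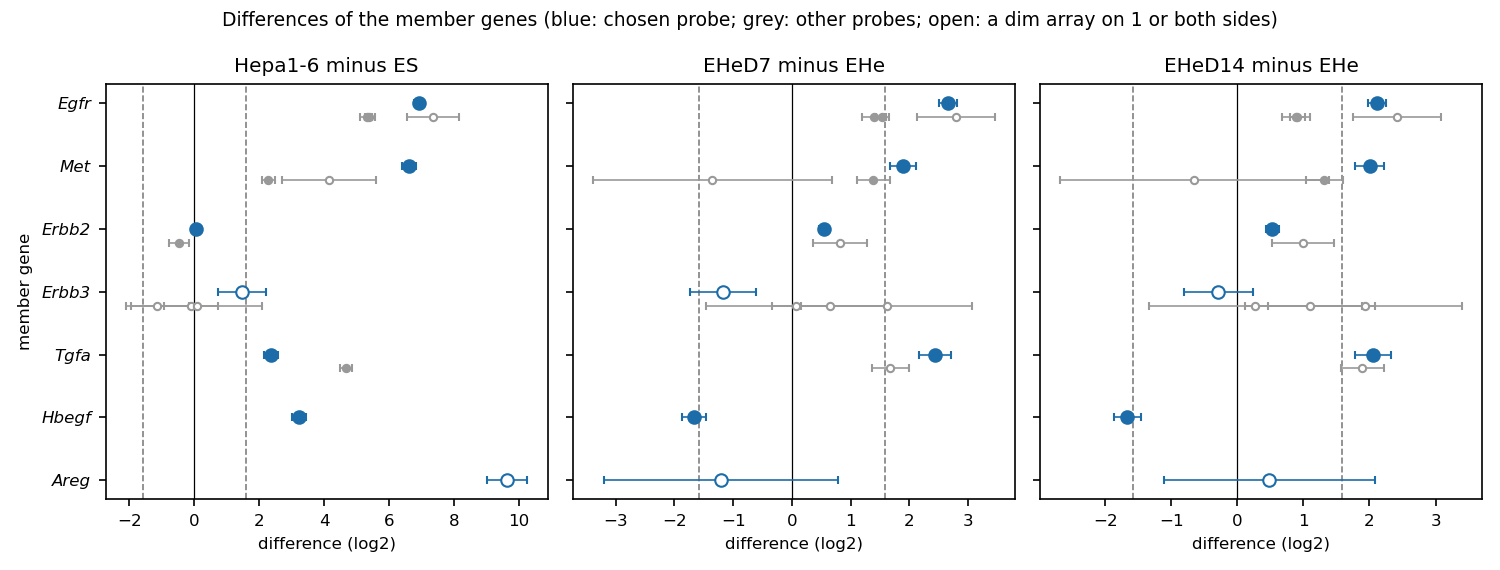
Log2 differences (x axis) of 7 member genes (y axis) between Hepa1-6 and ES, EHeD7 and EHe, and EHeD14 and EHe. Blue points are the best detected probes, grey points the other probes, bars the spot errors, open points have a dim array on 1 or both sides, and dashed lines mark 3-fold. The best detected probes of Egfr, Met and Tgfa lie right of 0 in all panels, and Hbegf is right of 0 in the first and left of it in the others.

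Egfr was 6.34-fold higher at day 7 (2.66 ± 0.15 on the log2 scale) and 4.33-fold at day 14 (2.11 ± 0.14). The size of the change went with the transcript record the probe belongs to. The best detected probe and the one that was dim in ES and EHe are listed under the record of the full-length receptor, and the latter was at least 4.44-fold higher at day 7 and at least 3.43-fold at day 14. The remaining pair is listed under the record of a shorter form that lacks the kinase domain. These were 2.91-fold and 2.64-fold higher at day 7, and 1.88-fold and 1.85-fold at day 14. At day 14 the log2 differences of the probes printed 10 times were 2.11 ± 0.14 for the first record and 0.91 ± 0.12 for the second, apart by more than the spot error. The best detected and the second Met probe also differed, with 3.70-fold and 2.62-fold at day 7, though listed under the same record. Record and probe can therefore not be told apart for Egfr. The probe sequences were not used here, so which transcripts each probe detects was not tested.

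Between the days Egfr was lower at day 14 than at day 7 on all 4 probes, by 0.37 to 0.63 on the log2 scale, and by 0.55 ± 0.10 for the best detected. All 4 differences exceeded their spot error. Those of Met (0.12 ± 0.20) and Hbegf (-0.001 ± 0.21) did not. The Tgfa probes went opposite ways between the days, with -0.38 ± 0.21 and 0.21 ± 0.12.

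Met was 3.70-fold higher at day 7 and 4.01-fold at day 14 than in EHe, and its second probe 2.62-fold and 2.49-fold. That second probe was lower in EHe than in ES, so its levels at days 7 and 14 lay slightly under ES, 1.28-fold at day 14, whereas the best detected probe was then 3.54-fold over ES. Tgfa was 5.42-fold higher at day 7 and 4.16-fold at day 14, and at least 2.41-fold and 2.80-fold by its second probe. Hbegf was 3.18-fold lower at both days, just past the 3-fold line. These calls were sensitive to background correction. With normexp the log2 differences were 1.49 at day 7 for Met, 1.45 and 1.15 for Tgfa and -1.54 and -1.46 for Hbegf, all inside 3-fold, while Egfr stayed past it with 2.38 and 1.83 and Met at day 14 with 1.64.

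Other measures moved with these changes. Esrrb went from 4.02 in EHe to 0.37 at day 7 and -2.84 at day 14, Zfp42 from 5.68 to 2.62 and 1.60, and Sox2 from 3.47 to 1.68 and 1.31. These 3 pluripotency markers were thus lower at both days, while Pou5f1 stood at 4.04 in EHe and 4.18 in EHeD14. The median level of 6 extraembryonic endoderm markers was -2.47 in EHe, -1.66 in EHeD7 and -0.15 in EHeD14, and 0.18 in ES. Among them Dab2 went from -2.85 in EHe to 0.76 in EHeD14, Gata6 from -2.10 to -0.24 and Sox17 from -3.97 to -1.74. The rest moved little between these arrays: Gata4 (-4.44 and -4.27), Sparc (5.14 and 5.25) and Lama1 (0.02 and -0.07). Of 10 fibroblast and mesenchyme markers, 5 were well above background in ES and in EHe, 8 in EHeD7 and in EHeD14, and 3 in Hepa1-6. Their log2 summed level was 0.84 in ES, 0.14 in EHe, 2.37 and 2.53 in EHeD7 and EHeD14, and 7.46 in Hepa1-6, where Dcn made up nearly all of it, while Dcn and Lum were dim in every hybrid array. Of 5 measured trophoblast markers, 2 were well above background in EHe, 5 in EHeD7 and 4 in EHeD14. Krt7 went from -4.33 in EHe to 1.53 in EHeD14 and Hand1 from -4.84 (dim) to 0.30, while Tfap2c went from 3.29 to -1.83. The log2 summed level of the trophoblast list was 4.09 in ES, 3.31 in EHe, 1.98 at day 7, 2.16 at day 14 and 2.07 in Hepa1-6. The part of other cell types in the receptor and ligand levels was not tested, and in such bulk samples fewer cells of a type and less RNA per cell cannot be told apart.

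The fourth comparison asked how far the differentiated hybrids came to the hepatoma level. At day 14, 4 of the 7 detected members were still over 3-fold below Hepa1-6 and none was over 3-fold above it, against 12.7% of all probes lower and 22.1% higher. Egfr was 12.1-fold lower than in Hepa1-6, Met 28.0-fold, Hbegf 46.5-fold and Areg at least 756-fold. Tgfa was 1.88-fold lower by its best detected probe and 9.13-fold by the second. Against ES, Egfr was 9.96-fold higher and Met 3.54-fold, while Hbegf was 4.96-fold lower, beside 9.19% of all probes higher and 7.55% lower.

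As a share of the log2 gap from EHe to Hepa1-6, Egfr closed 46.6% at day 7 and 37.0% at day 14, and the 2 other probes well above background on all arrays 38.2% and 34.2% at day 7 and 22.5% and 21.7% at day 14. The last probe, dim in EHe, gave 35.9% and 29.8% with EHe at the detection limit. Met closed 27.7% and 29.4%, and 35.0% and 33.3% by the second probe. Tgfa closed 82.3% and 69.3% by the best detected probe but 33.0% and 37.2% by the second, so that its share depends on the probe. Hbegf moved away from Hepa1-6, with -43.1% and -43.2%. Areg was dim in EHe and at both days, and its share was not read. The median share over the 10731 probes with a gap over 3-fold was 11.5% at day 7 and 12.9% at day 14. These probes had gaps in either direction and were well above background on at least 1 array, so that many may be dim in the hybrids. The EHe array stands on both sides of each share, so that its noise enters both.

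**Figure D3:**
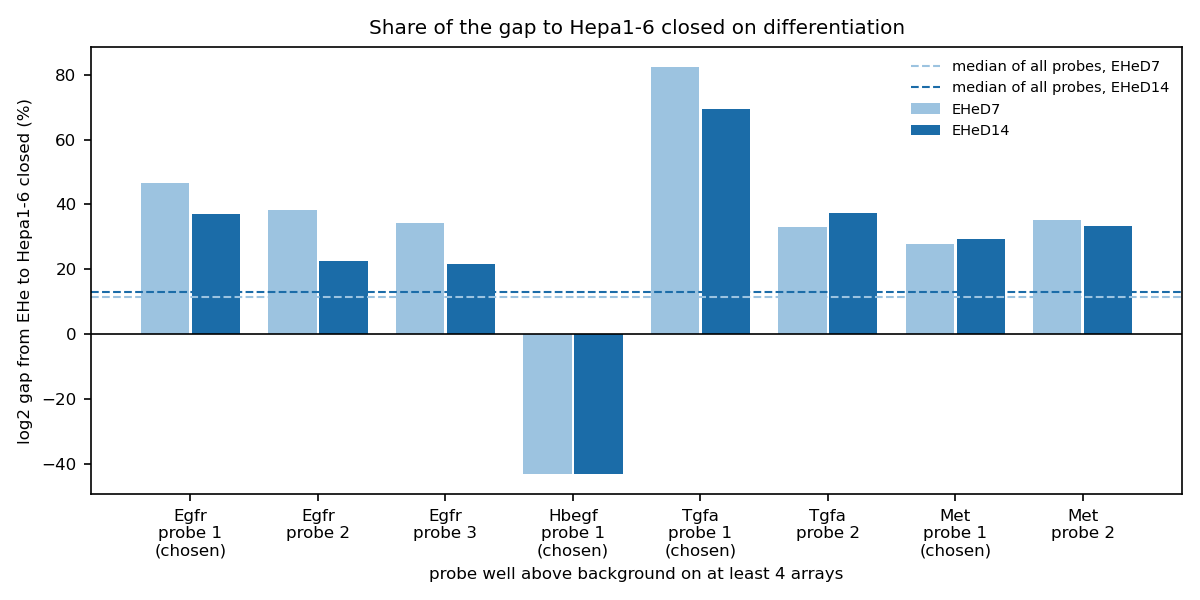
Share of the log2 gap from EHe to Hepa1-6 closed (y axis, %) at day 7 (light bars) and day 14 (dark bars) for each member probe well above background on at least 4 arrays (x axis; the second Tgfa probe was dim in EHe). Dashed lines are the medians over all 10731 probes apart between EHe and Hepa1-6, 11.5% and 12.9%. Those probes had to be well above background on at least 1 array only, a looser filter than that of the bars. Egfr, Tgfa and Met lie above the lines and Hbegf lies at -43.1% and -43.2%.

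The other genes of the pathway were taken from 6 lists. Of 7 further ErbB ligands, 5 were detected. Nrg1, a neuregulin that binds ERBB3 and ERBB4, was 15.9-fold above ES in Hepa1-6. In EHeD14 it was 4.29-fold above EHe, the only member of its list past 3-fold there, beside 8.2% of all probes higher and 4.66% lower. Btc (betacellulin) was at least 12.3-fold higher in Hepa1-6, and Nrg4 was 5.70-fold lower. Btc, like Areg, counted as detected through its Hepa1-6 signal alone, so that its direction was set by that filter. Epgn was at least 1.56-fold lower in Hepa1-6, and Egf itself was within 1.21-fold in both comparisons. The list's median difference was 0.23 between Hepa1-6 and ES, beside -0.40 over all probes, and 0.27 between EHeD14 and EHe, beside -0.06.

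Feedback inhibitors and proteins of receptor turnover had 14 detected genes, of which 6 were higher in Hepa1-6 by over 3-fold against ES and none lower, beside 14.3% and 25.3% of all probes. Socs5, which promotes EGF receptor degradation, was 24.4-fold higher. Errfi1 (MIG6), which binds and blocks the receptor kinase, was 13.1-fold higher, the phosphatase gene Ptprj 4.93-fold and Lrig1 4.41-fold. At day 14, Socs5 was 5.83-fold higher than in EHe and Lrig1 was 3.39-fold lower, which is 1 of 14 in each direction beside 8.2% and 4.66% of all probes. Errfi1 (2.39-fold) and Spry1 (2.19-fold) were higher but inside 3-fold. The list's median was 0.84 between the parents and -0.06 between EHeD14 and EHe.

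The 22 detected adaptors and relay proteins had 2 genes past 3-fold upward in Hepa1-6 against ES and 1 downward, beside 14.3% and 25.3% of all probes. Pik3r1, the regulatory subunit of PI3 kinase, was 12.5-fold higher, and Erbb2ip, which binds ERBB2, 8.11-fold higher. Gab1, the docking protein that links MET and the EGF receptor to PI3 kinase and SHP2, was 19.3-fold lower in Hepa1-6 than in ES and, at day 14, lower than in EHe by 3.43 ± 0.20 on the log2 scale. It was the one relay gene of 22 past 3-fold at day 14, a share close to the 4.66% of all probes that were lower. The list's medians were 0.25 and -0.16.

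Among sheddases and their regulators, 7 were detected, and 4 were higher and 1 lower in Hepa1-6 by over 3-fold, beside 14.3% and 25.3% of all probes. Timp3, an inhibitor of the sheddase ADAM17, was 62.7-fold higher, Adam9 5.37-fold and Rhbdf1, which helps ADAM17 mature, 4.21-fold. Adam19 was at least 21.1-fold lower. At day 14, Timp3 was 15.3-fold higher than in EHe, Adam15 3.27-fold and Rhbdf1 3.07-fold, and none of the list was over 3-fold lower, beside 8.2% and 4.66% of all probes. The list's medians were 1.64 and 0.99.

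Of 13 detected genes of HGF activation and MET partnership, 8 were higher in Hepa1-6 by over 3-fold against ES and 2 lower, beside 14.3% and 25.3% of all probes. Hgfac, the protease that activates HGF, was 253-fold higher as measured against a dim ES signal, and Plat, tissue plasminogen activator, 96.6-fold higher. Spint1, which inhibits HGF activators, was at least 228-fold lower, and St14 (matriptase), which it inhibits, at least 173-fold lower. At day 14, 6 were over 3-fold higher than in EHe and none lower, of which 4 were also past 3-fold as bounds, beside 8.2% and 4.66% of all probes. Hpn (hepsin), a protease that can activate HGF, was 10.5-fold higher, Plat 5.49-fold, St14 4.02-fold and Mst1r, the receptor most related to MET, at least 4.96-fold. St14 thus differed in sign between the comparisons. Mst1r and Plau, both among those higher at day 14, counted as detected through the differentiated hybrids alone. Their direction against EHe was therefore set by that filter. Hgf itself was dim on all 5 arrays, as given above. The list's medians were 2.72 and 1.36.

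Target genes of the ERK relay had 12 detected members, with 9 higher in Hepa1-6 by over 3-fold and 2 lower, beside 14.3% and 25.3% of all probes. Fosl1 was 56.0-fold higher, Phlda1 34.2-fold and Egr1 20.2-fold, and Etv1 was at least 37.3-fold lower. In EHe 4 of them (Fosl1, Phlda1, Myc and Fos) were over 3-fold lower than in ES, Fosl1 and Fos only as measured against a dim EHe signal, beside 5.66% of all probes lower. At day 7 and at day 14, 7 were over 3-fold higher than in EHe and none lower, 6 of the 7 at day 14 also as bounds. Of all probes 8% were higher and 4.21% lower at day 7, and 8.2% and 4.66% at day 14. Dusp4, a phosphatase that switches ERK off, was 11.2-fold higher at day 14, Egr1 4.74-fold, Myc 4.72-fold and Fos at least 3.73-fold. Dusp6, Etv1, Etv4, Etv5 and Junb were within 3-fold then, Etv1 lower by 0.90 on the log2 scale. Dusp5 and Ccnd1, also on the list, had no probe named here. For Ccnd1 the study's supplement gives a lower ratio to the hepatoma line in EHeD14 than in EHe. The list's medians were 3.05 and 1.72. The medium changed with differentiation, and its part in these genes was not tested.

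**Figure D4:**
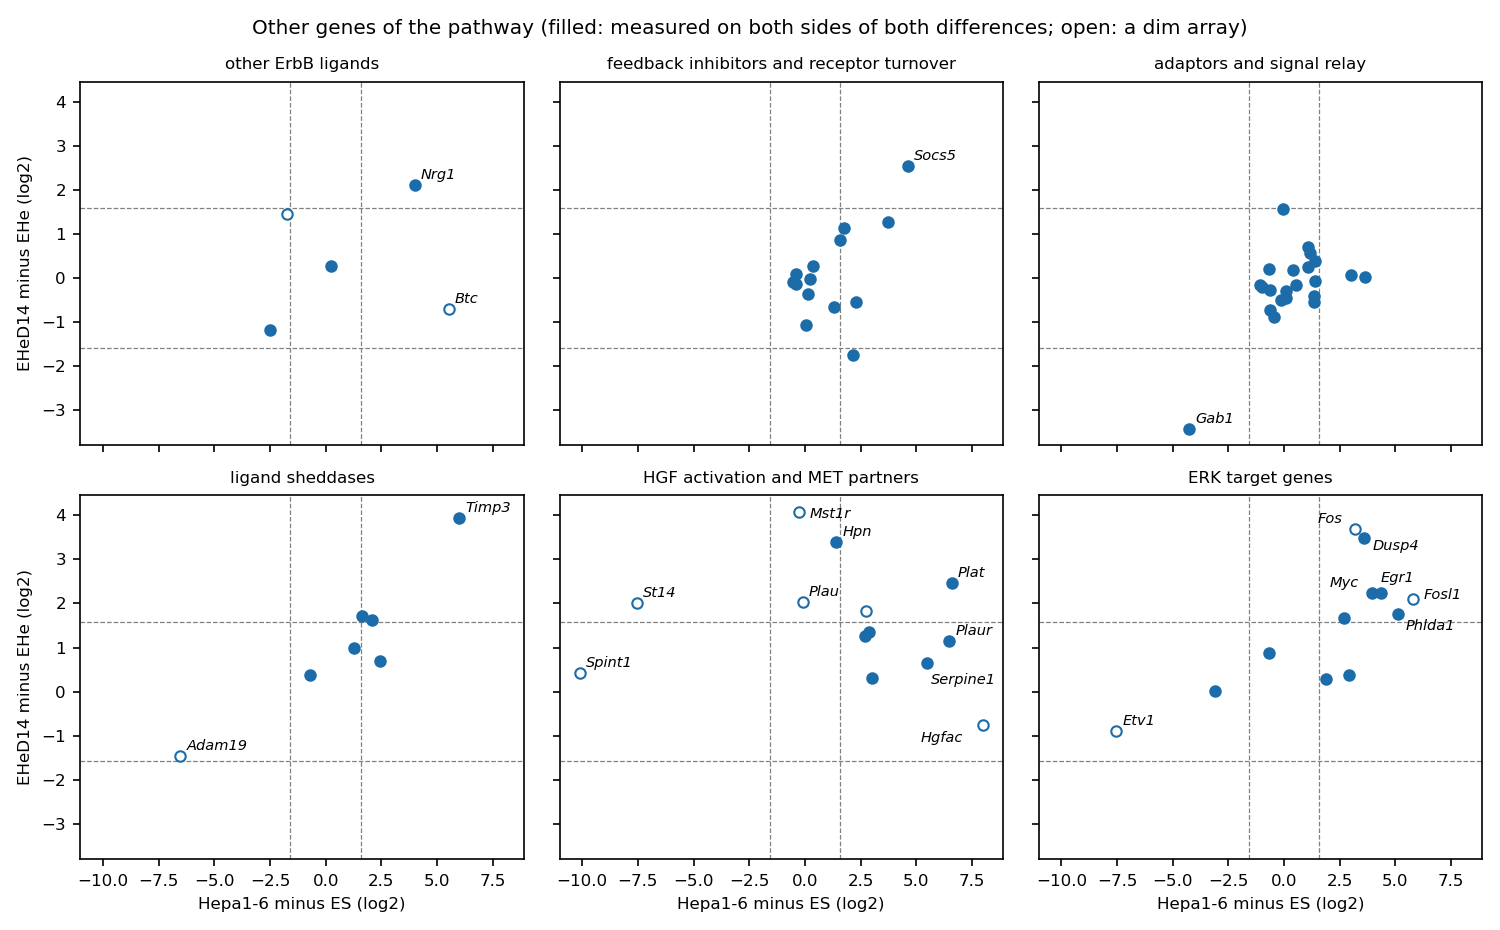
Log2 difference between EHeD14 and EHe (y axis) against that between Hepa1-6 and ES (x axis) for the detected genes of 6 pathway lists, 1 panel per list and 1 point per gene. Open points have a dim array in 1 of the differences and dashed lines mark 3-fold. Timp3 (15.3-fold and 62.7-fold) and Gab1 (-3.43 and -4.27 on the log2 scale) lie past 3-fold on both axes, while most relay genes lie near 0.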

How the data were processed

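The authors hybridised 1 Agilent 1-colour mouse array per condition and deposited the scanner output of Agilent Feature Extraction 10.7.3.1 (per the labels), 45018 spots per array. The labels give Cy3 and monolayer differentiation, the study's methods Cy5 and embryoid bodies. The value used is the processed signal intensity, which the deposited files hold corrected for background and detrended, with no normalization between arrays. The scanner's deposited calls (0 or 1) of outlier spots, of saturation and of signal well above background were also used.

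Control spots and outliers (73 to 174 per array) were left out and no spot was saturated. Log2 intensities were shifted by the array's 75th percentile (signals of 1087 to 1456) and averaged per probe, and a probe was called well above background where at least 0.5 of its spots were. Probes were named through the RefSeq accession of the file (26888 named, 14286 not named here). The members, the 6 pathway lists and the marker lists were chosen with earlier results of these data known. A gene is described by the probe detected on the most arrays and then brightest. In each list the 4 genes with the largest difference were named, where detected, and some that this picks are not reported here. Calls are over 3-fold, and no test was possible. The procedure was tested on simulated data. Alternatives were normexp with an offset of 50 on the deposited median signals, quantile normalization, median centring, dim values at the detection limit, the series table, the mean of a gene's probes, 2-fold, and detection asked on no array or on all 5. Tools were Python 3.11.15, numpy 2.4.6, pandas 2.3.3, matplotlib 3.10.9, R 4.3.3 and limma 3.58.1.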

Additional observations from a re-analysis of the deposited data

How the results depend on the processing

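No paired analysis was possible because no condition had a second array. Of 90 recomputed counts of members past 3-fold, 84 stayed within 1.5 times the count given and 6 moved, and no called difference changed sign. With normexp, 1 member was higher (Egfr) and 0 lower at day 7 than in EHe, and 0 were lower at day 14. With the mean of a gene's probes, 1 member (Tgfa) was higher at day 14, Egfr then being at 1.58 on the log2 scale. At 2-fold, 2 members were higher in EHe than in ES (Egfr and Erbb3) and 3 lower at day 7 than in EHe (Hbegf, Areg and Erbb3), Erbb3 and Areg being dim on the arrays compared. Shares over all probes with normexp, with the mean of probes or at 2-fold are not given here. The counts under these settings are therefore no result about the members as a set. Among single values, 146 of 210 log2 differences, 45 of 60 gap shares and 185 of 216 list counts stayed within their tolerance. Over all probes, the median of Hepa1-6 minus ES went from -0.40 to 0.39 under median centring and to -0.08 under quantile normalization, so that the member differences stand against a median that depends on the scaling. The causes were not tested. The series table holds the same values as the processed signal, so its entries, counted above among those that stayed, could not move. Precision is limited by the number of arrays, and for Erbb3, Erbb4, Ereg, Hgf and, outside Hepa1-6, Areg by signals near background.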

Other observations

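The genes whose pattern over the 5 arrays lay nearest to 3 members are given as a description, from 15445 other named genes, by the root mean square difference of log2 levels after centring each gene on its mean, with dim values at the detection limit. Nearest to Egfr were Axl, a receptor tyrosine kinase (0.25), Mlkl (0.28) and Cpe (0.33). Axl was dim in ES and EHe and stood at -2.23 in EHeD7, -2.40 in EHeD14 and 1.20 in Hepa1-6. Among the nearest to Met were Rin1 (0.16) and Thsd4 (0.30). Rin1 had -3.92 in ES, -3.76 in EHe, -1.84 at day 7, -1.65 at day 14 and 2.91 in Hepa1-6. Nearest to Tgfa were Ppp1r36 (0.15), Snx21 (0.18) and Cdkn1a (0.18), the gene of the cell cycle inhibitor p21. Cdkn1a had 1.33 in ES, 0.66 in EHe, 3.16 at day 7, 2.93 at day 14 and 3.29 in Hepa1-6.

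Markers of further cell types were also measured. All 6 extraembryonic endoderm markers were well above background in ES, EHe, EHeD7 and EHeD14, with a log2 summed level between 5.20 in EHe and 5.77 in ES, most of it from Sparc (5.14 in EHe), and 3 were in Hepa1-6. Of 5 neural ectoderm markers, 4 were well above background in ES, EHe and EHeD7, 3 in EHeD14 and 2 in Hepa1-6. The genes were not the same, as Neurog2 was dim in ES and EHe and Pax6 in EHeD7. Pax6 stood at -4.59 in ES and -0.22 in EHe. From EHe to EHeD7, Nes went from 1.70 to 3.67, Tubb3 from 2.36 to -0.34 and Sox1 from -2.77 to -3.94. Of 4 measured markers of blood cells and macrophages at most 1 was well above background on any array, and Ptprc, Adgre1 and Spi1 were dim on all. Of 4 endothelial markers, Cdh5 and Kdr were dim on all arrays. Pecam1 was well above background in ES (-0.48), EHe (-1.33) and EHeD7 (-4.51). Tek was so in ES (-3.29), EHeD7 (-5.17) and EHeD14 (-5.10).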
